A study of Homo sapiens with 12 samples.

Results

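The mitotic kinesins are motor proteins that build the spindle, line up and segregate chromosomes and complete cell division. KIF11, KIF23, KIF20A, KIF20B, KIF4A, KIF2C, KIF15, KIF18A, KIF14 and CENPE were taken as 10 members by name, and their rows were found in the count table by Ensembl identifier. The table gave 9 of them among 20595 genes, and KIF11 is not analysed here. Messenger RNA was sequenced from A549 and H1792, established lung adenocarcinoma cell lines with amplified MDM2, each kept for 48 h in the solvent DMSO or in RG7112, a nutlin family inhibitor that occupies the p53 pocket of MDM2. The p53 gene is taken as wild type (WT) in A549 and as mutant in H1792. This is what the study states in most places, although its text on the RNA-seq design gives the reverse for both lines and a figure legend also gives A549 as mutant. The labels give a dose of 1 μM, whereas the column names of the table carry 0.1 μM. Each of the 4 groups (A549 with DMSO, A549 with RG7112, H1792 with DMSO, H1792 with RG7112) had 3 replicates, 12 samples in all. Each p53 state is represented by 1 cell line, so p53 state cannot be told apart from the other differences between the lines. The labels do not say whether replicates were separate cultures, and p-values then measure only the spread between these samples.

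Kinesins use ATP to walk along microtubules or to take apart their ends. The genes of the mitotic members are expressed mainly in G2 and M phase, are repressed in resting cells by the DREAM complex and are activated in cycling cells by B-MYB, the MuvB core and FOXM1. When p53 is stabilized it induces CDKN1A (p21), which holds the retinoblastoma family proteins in their repressive state. DREAM and its activating counterpart bind the cell cycle genes homology region, written TTTGAA or TTTAAA, often near a CCAAT box bound by NF-Y.

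Promoter sequences are shown for the 4 members with enough counts to be tested, since these are the genes whose levels are described next. All 9 members matched the RefSeq promoter table (GRCh38.p14). Each line runs from 200 bases before the start site through the first 30 bases of the transcript, 5′ to 3′ on the gene's strand, and capitals mark TTTGAA or the variant with A in its 4th place, TTTAAA, and the CCAAT box, on either strand (ATTGG is CCAAT read from the other strand).
KIF23, chr15:69414149-69414378, plus strand: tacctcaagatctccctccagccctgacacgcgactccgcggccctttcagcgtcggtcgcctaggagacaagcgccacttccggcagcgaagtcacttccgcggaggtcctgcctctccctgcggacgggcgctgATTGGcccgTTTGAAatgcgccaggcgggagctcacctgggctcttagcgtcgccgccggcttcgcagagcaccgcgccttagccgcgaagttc
KIF20A, chr5:138178912-138179141, plus strand: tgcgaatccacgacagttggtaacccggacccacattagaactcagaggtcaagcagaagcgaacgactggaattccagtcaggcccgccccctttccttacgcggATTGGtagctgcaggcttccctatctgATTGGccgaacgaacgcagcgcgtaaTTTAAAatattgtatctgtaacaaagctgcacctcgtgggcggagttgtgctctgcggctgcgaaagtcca
KIF18A, chr11:28108127-28108356, minus strand: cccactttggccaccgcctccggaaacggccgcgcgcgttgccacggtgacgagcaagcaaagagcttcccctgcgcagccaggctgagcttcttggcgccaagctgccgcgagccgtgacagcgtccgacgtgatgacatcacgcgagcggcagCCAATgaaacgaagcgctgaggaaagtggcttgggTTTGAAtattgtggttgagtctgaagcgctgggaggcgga
KIF20B, chr10:89701390-89701619, plus strand: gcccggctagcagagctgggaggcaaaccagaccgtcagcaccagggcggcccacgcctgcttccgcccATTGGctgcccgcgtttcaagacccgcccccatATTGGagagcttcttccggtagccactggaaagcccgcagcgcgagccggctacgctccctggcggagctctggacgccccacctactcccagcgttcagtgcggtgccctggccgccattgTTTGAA
In KIF23 the TTTGAA began at position -55 relative to the start site, 4 letters downstream of a CCAAT box on the other strand that began at -64. KIF20A had TTTAAA from -41 with CCAAT boxes from -94 and -67, and KIF18A had TTTGAA from -10 with a CCAAT box from -45. The TTTGAA of KIF20B lay after the start site, from position 25, with a further copy from 31. Searched on both strands over 250 bases before and 50 bases after the start, TTTGAA was found in 6 of the 9 members (15.2% of 35116 promoters), TTTAAA in 5 (12.2%), at least 1 of these in all 9 (24.0%) and CCAAT in 6 (34.6%). The palindrome TTCGAA was found in 0 of 9 members (1.45% of promoters), and of the E2F-like sequences TTTGGCGC was found in KIF15 alone (0.652% of promoters) and TTTCGCGC in 0 (0.515%). No 2 of these matches overlapped in a member. A match is a description of letters and not a measured binding site.

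Sequencing depth ranged from 2011916 to 6218825 estimated counts per sample, so that 3 counts, the limit that a count of 0 allows, stood for 0.667 to 1.02 CPM on average in a group (CPM relates a gene's counts to 1000000 counts of its library after TMM scaling, and these floors cover counting error only). In A549 the 8 lung epithelial markers added up to 14442 CPM at the lowest and 24010 at the highest, and H1792 gave 1067 and 2180, with NKX2-1 and SFTPB near 0 in both lines. Keratins carried these sums (KRT8 had 11714 CPM in A549 and 990 CPM in H1792 with DMSO). With DMSO and RG7112, EPCAM was at 0.668 and 0.622 CPM in A549, and CDH1 at 0.428 and 0.421 CPM in H1792, all below the floor of their group. Markers of other cell types summed to at most 8.0 CPM in A549 and to between 188 and 297 CPM in H1792, carried by COL1A1, with CD3E, MS4A1 and LYZ at 0. In H1792, fold changes of all genes fell with the GC content of their transcripts (Spearman rho across 9165 genes -0.444), and in A549 they rose with it (rho across 9941 genes 0.251). A GC correction was run as an alternative, and the corrected values of the members are given with their results. A listed 0 need not mean absence in this table, since KIF5B, the kinesin heavy chain found in most cells, was listed at 0 counts in all 12 samples.

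In A549, RG7112 lowered all 4 mitotic kinesins that could be tested, by between 8.49-fold and 23.5-fold, although the calls of KIF18A and KIF20B were lost when some single samples were left out. In H1792 none of them passed the test as lower, and KIF18A rose 3.05-fold, a call that was lost with a GC correction. KIF18A and KIF20B reached the count filter in A549 through their DMSO samples alone, so only a fall could be tested. KIF18A reached it in H1792 through its RG7112 samples, so its rise there has the same limit. KIF23 and KIF20A carried most of the counts, KIF18A and KIF20B were expressed at a few CPM, and the other 5 members had at most 23 counts in any sample. In these bulk samples fewer dividing cells and less RNA per cell cannot be told apart.

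KIF23 (MKLP1, ENSG00000137807, GRCh38 chr15:69414246-69448427, plus strand) is the motor of centralspindlin, the complex with RACGAP1 that bundles the midzone and positions the cleavage furrow. With DMSO, A549 had 145.4, 130.7 and 133.7 CPM in replicates 1, 2 and 3. With RG7112 it had 15.5, 13.3 and 13.01 CPM. Each treated sample thus lay far below each control, and KIF23 fell 9.73-fold (means of 137 ± 7.78 and 13.9 ± 1.34 CPM, with SDs over 3 replicates). On the log2 scale this was -3.28 ± 0.17 (± standard error, SE) with an adjusted p of 0.000283 in edgeR's quasi-likelihood test with Benjamini-Hochberg adjustment. In H1792 the values were 101.6, 100.6 and 99.6 CPM with DMSO. They were 115.7, 124.1 and 129.8 CPM with RG7112. All 3 treated samples were above all 3 controls, as for 24.9% of genes tested, but the change was small (log2 fold change 0.37 ± 0.085, edgeR adjusted p 0.0184, a threshold passed upwards by 17.7% of genes tested) and below the fold threshold for a differentially expressed gene (DEG, adjusted p under 0.05 and absolute log2 fold change over 1). With the GC correction the sign turned (-0.16, adjusted p 0.171), and the 1562 tested genes within 2 percentage points of the GC content of KIF23 had a median of 0.47.

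KIF20A (MKLP2, ENSG00000112984, GRCh38 chr5:138178719-138187715, plus strand) carries the chromosomal passenger complex from the chromosomes to the midzone at anaphase. A549 had 124.6, 106.7 and 117.3 CPM with DMSO. It had 7.27, 3.33 and 3.25 CPM with RG7112. No sample of one treatment came near the other, and the 23.5-fold fall was the largest among the 4 members tested (116 ± 8.97 against 4.62 ± 2.30 CPM, log2 fold change -4.56 ± 0.34 SE, edgeR adjusted p 0.000700). H1792 had 157.5, 179.6 and 129.2 CPM with DMSO. It had 153.0, 138.6 and 137.5 CPM with RG7112. The treatments overlapped in H1792, and the difference was within the spread of the replicates (log2 fold change -0.05 ± 0.12, adjusted p 0.780). Its sign turned when libraries were scaled by their total alone (0.21) and without DMSO replicate 2 (0.04), and with the GC correction the value was -0.24 (adjusted p 0.219).

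KIF18A (ENSG00000121621, GRCh38 chr11:28020620-28108308, minus strand) sits at the plus ends of kinetochore microtubules and damps chromosome movement so that chromosomes align. A549 had 9.97, 6.47 and 5.96 CPM with DMSO. It had 0.773, 1.43 and 0.542 CPM with RG7112, which is 5, 3 and 2 counts. The treatments did not overlap, and KIF18A fell 8.49-fold in A549 (log2 fold change -3.09 ± 0.50, edgeR adjusted p 0.0126). H1792 showed the other order, with 2.11, 2.99 and 1.74 CPM under DMSO. It had 6.70, 5.86 and 7.90 CPM under RG7112. Every treated sample of H1792 was above every control, and KIF18A rose 3.05-fold (2.28 ± 0.644 against 6.82 ± 1.02 CPM, log2 fold change 1.61 ± 0.34, edgeR adjusted p 0.0139). This call in H1792 was lost with the GC correction (log2 fold change 0.97, adjusted p 0.0836), with the replicate block (1.62, adjusted p 0.0643) and without RG7112 replicate 3 (1.49, adjusted p 0.0578). The 216 tested genes within 2 percentage points of its GC content (36.5%) had a median of 0.63 in H1792, and 12% of them had a value at or above that of KIF18A.

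KIF20B (MPP1, ENSG00000138182, GRCh38 chr10:89701610-89774939, plus strand) acts late in division, at the midbody. A549 had 6.23, 2.89 and 10.7 CPM with DMSO. It had 0.928, 0.476 and 0.271 CPM with RG7112, which is 6, 1 and 1 counts. The control samples were scattered but all lay above the treated ones, and KIF20B fell 10.3-fold (6.60 ± 3.91 against 0.558 ± 0.336 CPM, log2 fold change -3.36 ± 0.71, edgeR adjusted p 0.0315). Leaving out single samples moved this value to between -4.10 and -2.82, and the call was lost without any sample other than DMSO replicate 2 (adjusted p 0.0757 to 0.103). H1792 had 4.57, 8.29 and 1.31 CPM with DMSO. It had 5.67, 8.70 and 8.59 CPM with RG7112. These overlapped, replicate 3 of the controls held 3 counts, and the log2 fold change of 0.73 ± 0.56 did not pass the test (edgeR adjusted p 0.349), and with the GC correction it was 0.07 (adjusted p 0.942).

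**Figure D1:**
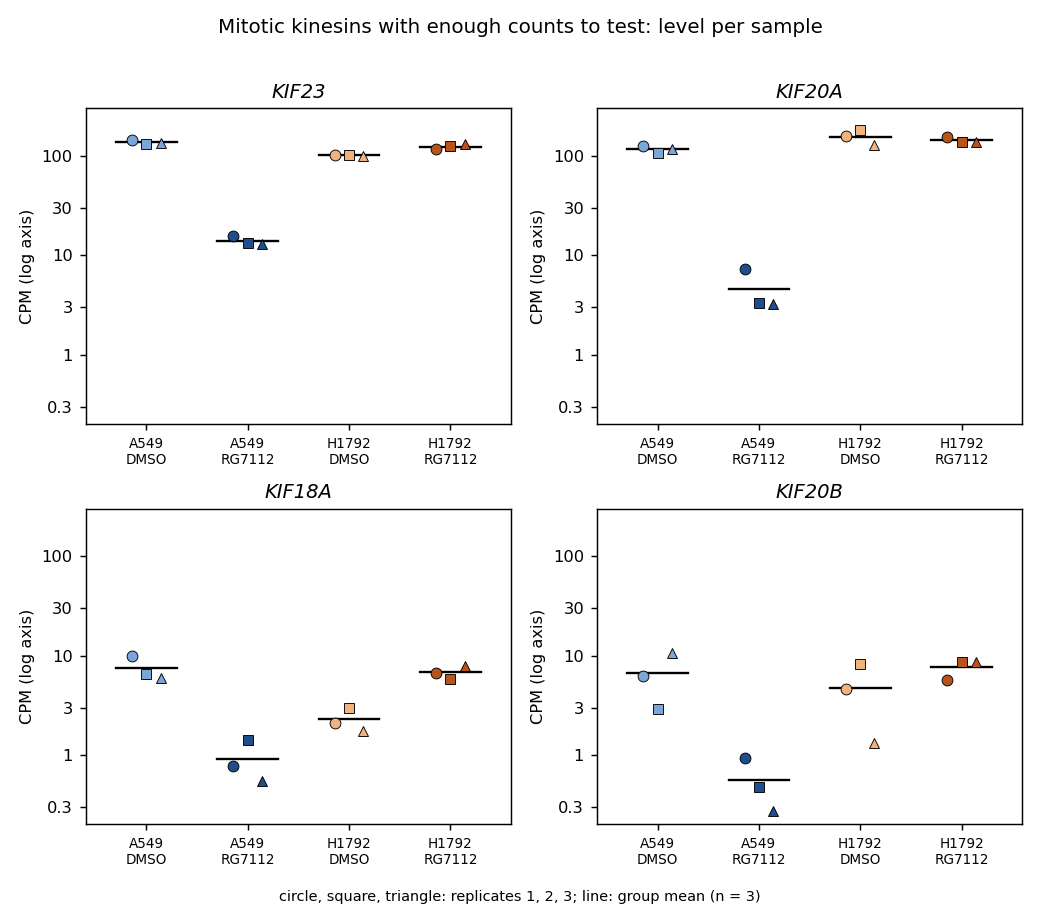
Level of KIF23, KIF20A, KIF18A and KIF20B in each of the 12 samples (vertical log axis, CPM, the same range in each panel; horizontal axis, the 4 groups; symbols, replicates; lines, group means, n = 3). The A549 samples with RG7112 lie below all other samples in each panel, with means of 13.9, 4.62, 0.914 and 0.558 CPM, respectively.

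The response of A549, read against the background, was 4 DEGs downregulated of 4 members tested, where 3.01% of all 10739 genes tested were downregulated DEGs. All 4 also had no overlap between treatments, as for 16.2% of genes tested in that direction. The members' median log2 fold change was -3.32, against -0.01 over all genes tested. KIF18A and KIF20B reached the count filter through their DMSO samples alone (0 of 3 RG7112 samples at the filter level), so they could be tested in this direction alone, and the count of 4 is no support by itself. KIF23 and KIF20A reached it in all samples of both treatments. They kept their calls under every alternative in which they could be tested, with log2 fold changes from -3.38 to -2.99 and from -5.13 to -4.27, respectively. KIF20A could not be tested with at least 10 counts in every sample. KIF20B also lost its call in the replicate block (adjusted p 0.0502). KIF18A lost its call without DMSO replicate 1 (adjusted p 0.0602), without DMSO replicate 2 (0.0543) or without RG7112 replicate 1 (0.0691), and the count of members called was then 2 without DMSO replicate 1 or RG7112 replicate 1. With the GC correction all 4 members were still called in A549 (KIF23 -2.99, KIF20A -4.49, KIF18A -2.62, KIF20B -2.87).

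In H1792, 1 of the 4 members tested was an upregulated DEG, where 10.3% of 9914 genes tested were, and 0 were downregulated DEGs, where 4.34% were. At an unadjusted p under 0.05, 0 members were lower in edgeR, and DESeq2 and limma-trend each called 0 members lower. Their median log2 fold change was 0.55 against 0.01 over all genes tested, and -0.05 with the GC correction. KIF18A reached the count filter in H1792 through its RG7112 samples (0 of 3 DMSO samples at that level).

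The responses of the lines were compared directly as an interaction over all 12 samples, and all 4 members responded more negatively in A549 (11.4% of the 11666 genes tested did). KIF18A and KIF20B had 0 of 3 A549 RG7112 samples at the filter level, and KIF18A also had 0 of 3 H1792 DMSO samples. KIF18A thus entered this fit through the groups whose high values make its interaction negative, so the count of 4 is no support by itself. The difference of the log2 fold changes, A549 minus H1792, was -3.57 ± 0.16 for KIF23 (edgeR adjusted p 3.85e-07), -4.41 ± 0.33 for KIF20A (1.84e-05), -4.62 ± 0.59 for KIF18A (0.000707) and -4.01 ± 0.97 for KIF20B (0.0159). Only KIF23 could be tested with at least 10 counts in every sample. Wherever they could be tested, KIF23, KIF20A and KIF18A kept the call of a negative interaction. KIF20B lost it with the GC correction (-2.85, adjusted p 0.0553) and without replicate 3 of every group (-2.63, adjusted p 0.0889).

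**Figure D2:**
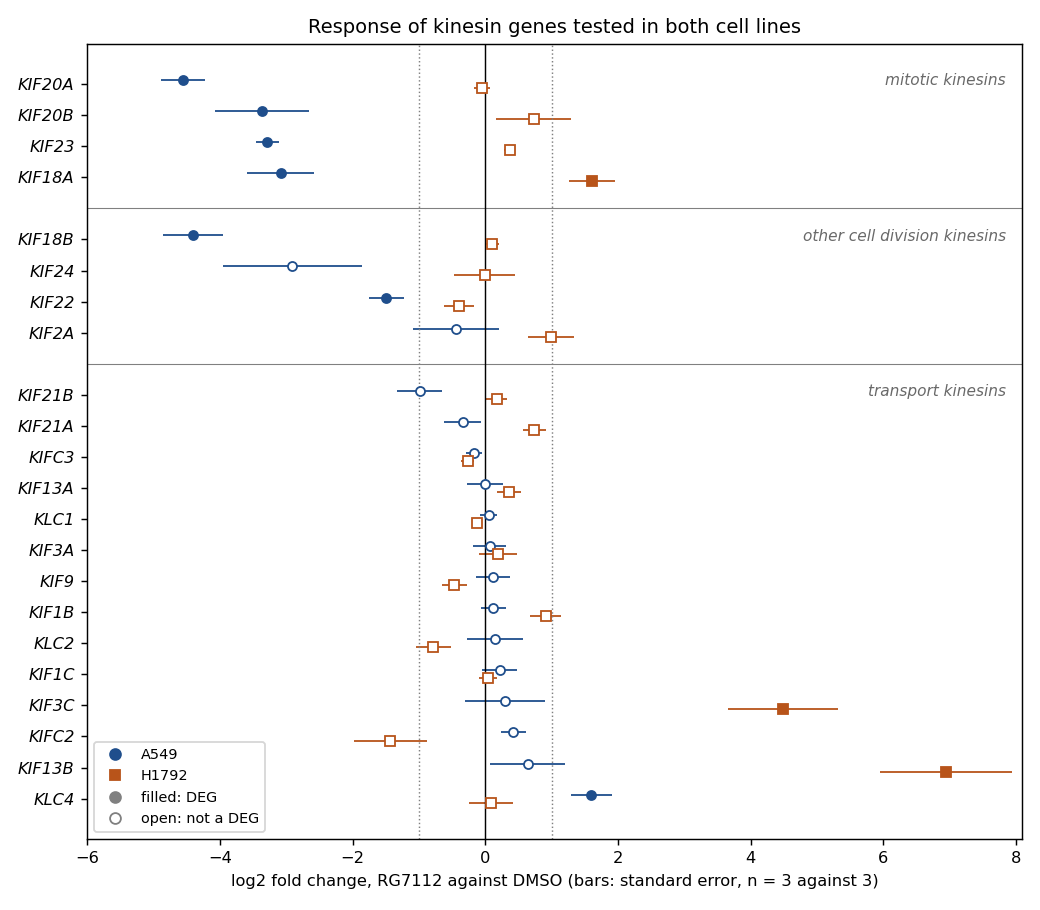
Log2 fold change of RG7112 against DMSO (horizontal axis; bars, SE; n = 3 against 3) for each kinesin gene tested in both lines, with A549 as circles, H1792 as squares and filled symbols for DEGs. The 4 mitotic kinesins span -4.56 to -3.09 in A549 and -0.05 to 1.61 in H1792, and dotted lines mark the fold threshold of 1.

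With DMSO alone, 1 of the 4 members differed between the lines past both thresholds. KIF18A was 3.16-fold higher in A549 than in H1792 with DMSO (log2 difference 1.66 ± 0.40, edgeR adjusted p 0.00527), where 20.4% of genes tested were DEGs in that direction. For KIF18A, 0 of 3 H1792 DMSO samples were at the filter level. KIF23 was higher in A549 in every sample but below the fold threshold (0.44 ± 0.11, adjusted p 0.00550), where 25.6% of genes tested passed that p upwards and 30.9% had no overlap upwards. KIF20A was lower in every A549 sample (27.5% of genes tested had no overlap downwards; -0.42 ± 0.21, adjusted p 0.122), and KIF20B overlapped (0.42 ± 0.62, adjusted p 0.597), and neither passed the test.

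Ordered from high to low, the mean level of KIF23 ran from A549 with DMSO (137 CPM) through H1792 with RG7112 (123) and H1792 with DMSO (101) to A549 with RG7112 (13.9), and no neighbours overlapped, though the nearest samples of the first and second were at 130.7 and 129.8 CPM. KIF20A ran from H1792 with DMSO (155) through H1792 with RG7112 (143) and A549 with DMSO (116) to A549 with RG7112 (4.62), with overlap between the first and second. For KIF18A, A549 with DMSO (7.47) and H1792 with RG7112 (6.82) overlapped, and both were above H1792 with DMSO (2.28) and A549 with RG7112 (0.914), which did not overlap each other. However, the nearest samples of H1792 with DMSO and A549 with RG7112 held 4 and 3 counts (1.74 and 1.43 CPM), near the floor. For KIF20B, H1792 with RG7112 (7.65), A549 with DMSO (6.60) and H1792 with DMSO (4.72) overlapped in every pairing, and A549 with RG7112 lay below (0.558). Per kb of the longest transcript, KIF23 and KIF20A were alike in A549 with DMSO (36.7 and 36.3 CPM per kb), whereas in H1792 with DMSO KIF20A was the higher (48.6 against 27.0). KIF18A (2.09 and 0.639 CPM per kb in A549 and H1792 with DMSO) and KIF20B (1.03 and 0.736) were far lower on the same scale.

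The 5 remaining members were too low to be tested, and their estimated counts are given as they stand. KIF2C (MCAK, ENSG00000142945, GRCh38 chr1:44739818-44767767, plus strand), which depolymerizes microtubules at centromeres to correct faulty attachments, had 4, 6 and 4 counts in A549 with DMSO and 0, 1 and 0 with RG7112, a ratio of 13.1 (exact 95% interval 1.99 to 554, counting error only). In H1792 it had 23, 3 and 10 counts with DMSO and 9, 10 and 8 with RG7112, a ratio of 1.94 (1.15 to 3.33). The counts of KIF2C were lower in every treated A549 sample (16.2% of genes tested had no overlap in that direction). They lay near or below the floor of 3 counts, so the size of this difference is uncertain. The treatments overlapped in H1792, where replicate 1 of the controls held most of the excess.

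KIF15 (ENSG00000163808, GRCh38 chr3:44761717-44873376, plus strand) helps to hold the spindle bipolar alongside the product of KIF11. In H1792 it had 10, 10 and 5 counts with DMSO and 0, 2 and 0 with RG7112, a ratio of 18.2 (exact 95% interval 4.54 to 159). In A549 it had 0, 23 and 0 counts with DMSO and 1, 0 and 0 with RG7112. The A549 control counts came from 1 library, whereas in H1792 all 3 controls held counts. The treated H1792 samples lay below the floor of 3 counts. When the count filter was dropped, KIF15 was a downregulated DEG in H1792 (log2 fold change -3.89 ± 0.99, edgeR adjusted p 0.0292). TMEM42 overlaps KIF15 on the same strand over 3802 bases, so reads there could be split between them.

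KIF14 (ENSG00000118193, GRCh38 chr1:200551497-200620734, minus strand), which acts with citron kinase in cytokinesis, had 11, 17 and 0 counts in H1792 with DMSO and 0, 0 and 0 with RG7112, at least 3.89-fold lower against a floor of 3 counts per library. In A549 it had 0, 0 and 9 counts with DMSO and 0, 1 and 4 with RG7112. One H1792 control was at 0 itself, and without that control (DMSO replicate 3) KIF14 passed the filter and was a downregulated DEG in H1792 (edgeR adjusted p 0.0282). It passed the filter there through its remaining DMSO samples alone, so only a fall could be tested and the call is no support by itself. CENPE (ENSG00000138778, GRCh38 chr4:103105806-103198409, minus strand), the kinetochore motor that carries chromosomes to the spindle equator, had 2, 0 and 0 counts in H1792 with DMSO and 2, 6 and 6 with RG7112, a ratio of DMSO to RG7112 of 0.208 (exact 95% interval 0.0230 to 0.906). In A549 CENPE had 0, 2 and 0 counts with DMSO and 1, 0 and 0 with RG7112, and KIF4A (ENSG00000090889, GRCh38 chrX:70290090-70420832, plus strand), the chromokinesin that sets midzone length with PRC1, had at most 4 counts in any sample. Neither shows a difference that could be detected at this depth in A549.

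**Figure D3:**
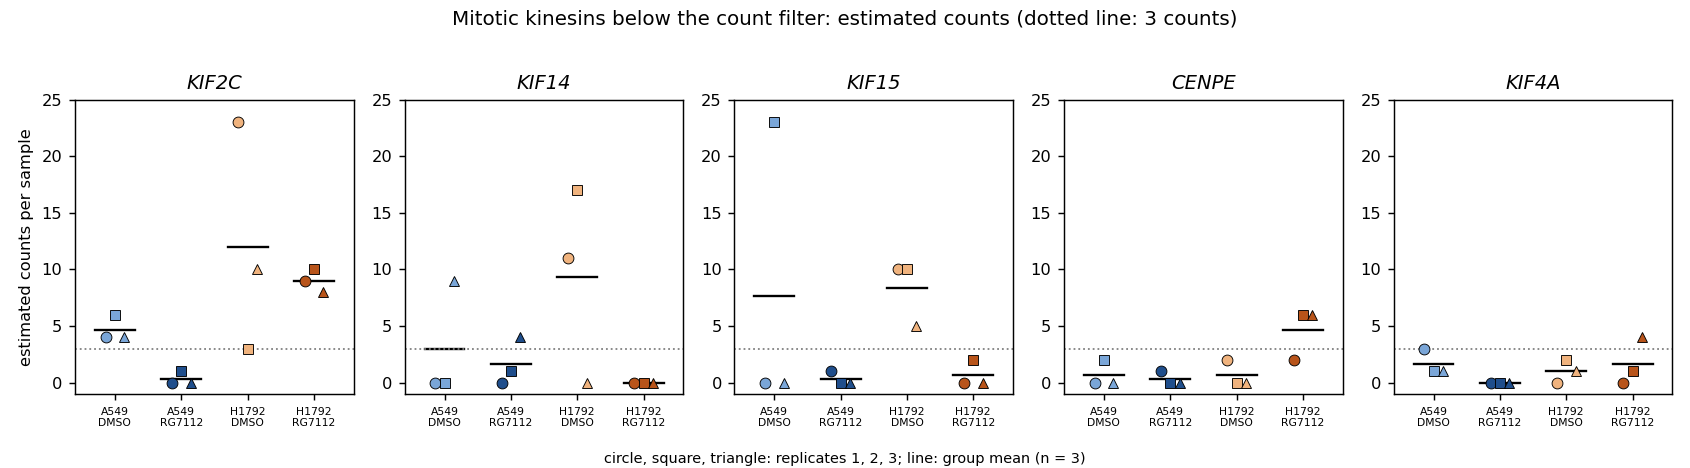
Estimated counts per sample (vertical axis) of the 5 members below the count filter in the 4 groups (horizontal axis), with replicates as symbols, group means as lines (n = 3) and the floor of 3 counts dotted. KIF15 in H1792 has 10, 10 and 5 counts with DMSO and at most 2 with RG7112, while its 23 counts in A549 stand in 1 library.

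The GC trend bears most on the values of H1792. Transcripts of KIF20B (35.4% GC), KIF18A (36.5%), KIF23 (42.1%) and KIF20A (49.6%) span the range in which the median fold change in H1792 went from clearly above 0 to near 0. Genes near KIF20B in GC content had a median log2 fold change of 0.79 (83 genes) and those near KIF20A of 0.12 (1436 genes). KIF20B, KIF23 and KIF20A differed from the median of such genes by between -0.17 and -0.06, and KIF18A by 0.98. After the correction the values were 0.07, -0.16, -0.24 and 0.97 for KIF20B, KIF23, KIF20A and KIF18A. In A549 the members differed from the median of genes of like GC content by between -4.50 and -2.74.

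**Figure D4:**
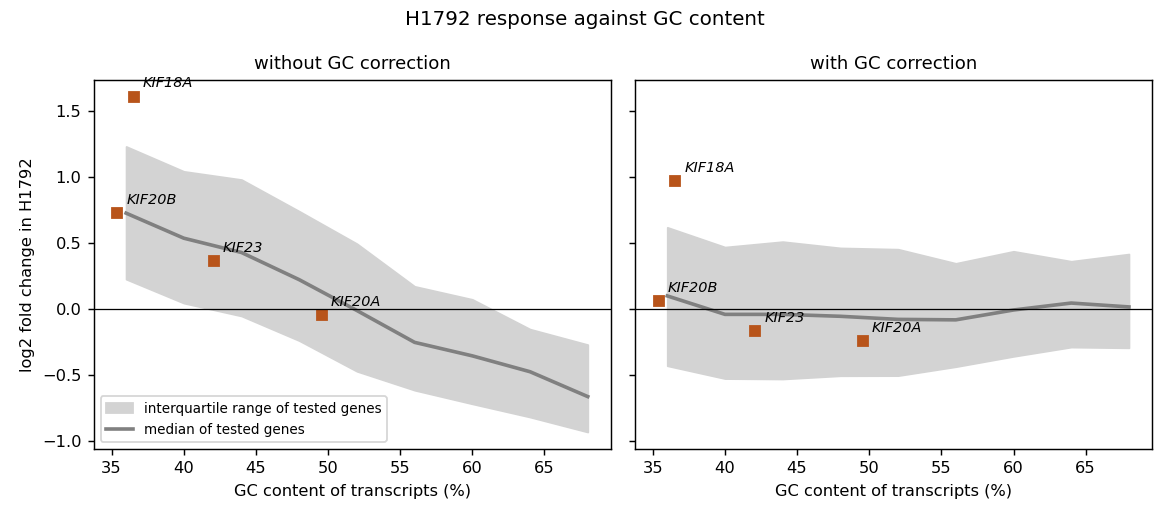
Log2 fold change in H1792 (vertical axis) against transcript GC content (horizontal axis, %), without (left) and with (right) GC correction, for the 4 members tested (squares) over the median (line) and the interquartile range (band) of all genes tested. KIF20B, KIF23 and KIF20A follow the median in both panels, and KIF18A lies above the band at 1.61 without and 0.97 with the correction.

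Of 18 listed genes that work with the mitotic kinesins, 14 were downregulated DEGs in A549 (3.01% of all genes tested were), with a median log2 fold change of -3.37. In A549, CENPF had 0 of 3 RG7112 samples at the filter level, and HMMR, CDCA8, BUB1B and ANLN had 1 of 3. Such genes could be tested because of their DMSO samples, so the count of 14 is no support by itself. CIT, TPX2, NUMA1 and NDC80 did not pass the test, and the value of NUMA1 was above 0 (0.21, adjusted p 0.346). RACGAP1, the other subunit of centralspindlin, fell from 133 ± 12.8 to 17.7 ± 3.98 CPM in A549 (log2 fold change -2.90, edgeR adjusted p 0.000700), and ECT2, the RhoA activator that it recruits, fell as well (-1.77, adjusted p 0.0414, and 0.0762 in the replicate block). BIRC5 (survivin), a subunit of the passenger complex that KIF20A carries, fell by 4.95 on the log2 scale, and MKI67, the proliferation antigen on mitotic chromosomes, by 4.35 (adjusted p 0.000326 and 0.000283). In H1792, 1 partner was a downregulated DEG (4.34% of all genes tested were) and 2 were upregulated DEGs (10.3% were), with a median of 0.09. PLK1, the mitotic kinase, fell there (-1.31, adjusted p 0.0188, and 0.0665 in the replicate block). The interaction of PLK1 did not pass the test (-1.49, adjusted p 0.0690), but it did with the GC correction (-1.80, adjusted p 0.0361), with library size only (-1.89, 0.0238) and in DESeq2 (-1.46, 0.0445). HMMR (1.01, adjusted p 0.00866) and ECT2 (1.46, adjusted p 0.0155) rose in H1792, but neither was a DEG with the GC correction (adjusted p 0.132 and 0.0684), and in the replicate block HMMR fell just short of the fold threshold (0.99). Without replicate 3 of every group, 11 of the 18 partners were called lower in A549 and 0 were called in H1792. The interaction was negative and significant for 14 of the 18 partners (11.4% of all genes tested), as for the 4 members.

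Other kinesins of cell division gave 2 downregulated DEGs among 4 tested in A549 (3.01% of all genes tested were), with a median of -2.20. KIF18B, which shortens astral microtubules, fell from 97.1 ± 1.41 to 4.21 ± 2.83 CPM (log2 fold change -4.40, adjusted p 0.00236), and KIF22, a chromokinesin, fell by 1.49 on the log2 scale (adjusted p 0.0184). In H1792 neither passed the test (adjusted p 0.493 and 0.223). The edgeR interaction of KIF22 did not pass either (-1.02, adjusted p 0.0661). It did pass with the GC correction (-1.38, adjusted p 0.0164) and with library size only (-1.43, 0.0110). Among the kinesins and light chains of cargo transport, 19 could be tested in A549, with a median of 0.12, and 1 was lower (KIF26A, -1.98, adjusted p 0.0294) and 1 higher (KLC4, a light chain, 1.60, adjusted p 0.0221). Over all 10739 genes tested in A549, 323 were downregulated and 342 were upregulated DEGs. KIF26A was no longer called in the replicate block (adjusted p 0.0637).

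Regulators of these genes were looked at in the same fits. Of 11 tested subunits of DREAM and the MYB-MuvB complex with FOXM1, 2 were downregulated DEGs in A549 (3.01% of all genes tested were). These were the activators FOXM1 (-3.76, adjusted p 0.000463) and MYBL2, which encodes B-MYB (-4.70, adjusted p 0.0146). In H1792, FOXM1 and MYBL2 did not pass the test (adjusted p 0.540 and 0.0794). Of 10 p53 response genes, 5 were upregulated DEGs in A549 (342 of all 10739 genes tested were). They included MDM2, from 8.52 ± 4.98 to 69.0 ± 9.25 CPM (adjusted p 0.0102), and CDKN1A, from 37.1 ± 11.3 to 444 ± 430 CPM (log2 fold change 3.58, adjusted p 0.0252, and 0.0672 in the replicate block). RG7112 replicate 3 held 940 CPM of CDKN1A, and without replicate 3 the log2 fold change was 2.18 (adjusted p 0.00171). In H1792, MDM2 and CDKN1A did not pass the test (adjusted p 0.928 and 0.882).

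Likeness to the members was measured as the root mean square difference over the 12 samples between a gene's log2(CPM + 1) values and the mean of the 4 tested members, each centred within its cell line. Over 11662 genes compared, the 5 nearest were HASPIN (0.240), RACGAP1 (0.268), UHRF1 (0.278), CIP2A (0.284) and MELK (0.286). HASPIN, the kinase that marks histone H3 at mitotic centromeres, went from 37.6 to 4.12 CPM in A549 and from 22.6 to 34.2 CPM in H1792. Of the members themselves, KIF23 was at 0.219 from the mean profile, KIF18A at 0.446, KIF20B at 0.477 and KIF20A at 0.595.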

How the data were processed

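RNA was sequenced from 12 samples of A549 and H1792 cells. Per the study's methods and the labels, poly-A RNA was made into directional libraries, kallisto 0.45.0 estimated transcript abundance on Ensembl GRCh38, and the authors deposited expected counts per gene as whole numbers, without normalization between samples. Whether strand was used in counting is not given in the sources used here. KIF20A overlaps BRD8 (268 bases) and KIF18A overlaps METTL15 (61 bases) on the opposite strand.

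Columns were matched to samples by cell line, treatment and replicate number. The 20595 identifiers were paired with symbols, positions, GC content and length through GENCODE v29, which held 18011 of them. The analysis used R 4.3.3 and edgeR 4.0.16. The low-count filter was filterByExpr (10 counts, total of 15). Counts were scaled by TMM and fitted by a robust quasi-likelihood model on the whole table, within each line for the response to RG7112 and over all 4 groups for the interaction and the DMSO comparison. P-values were adjusted by Benjamini-Hochberg over all genes tested. A DEG needed an adjusted p below 0.05 with a log2 fold change beyond 1 in size, and the interaction had no fold threshold. Members below the filter are given as counts, with exact 95% intervals of the ratio of summed counts that cover counting error only, since duplicate reads cannot be recognized.

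All 10 members were named. Of the other lists, the 3 genes with the smallest p in each line, or groups of up to 5 moving one way, could be named, with the 5 genes nearest to the members' profile. The members and lists were chosen with earlier results of these data known. Replicates of a group differed by 5.38 to 25.6 times what counting alone gives (chi-square per degree of freedom), so none was the same library sequenced again. Separate libraries from the same culture are not excluded by this.

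The alternatives were DESeq2 1.42.0, limma-trend (limma 3.58.1, prior count 2), scaling by RLE or by library size only, dropping the filter or asking for 10 counts in all samples, a block for the replicate number, GC correction (loess, span 0.5), the block with GC correction, no fold threshold, an adjusted p under 0.01, and leaving out each sample or replicate 3 of every group. On simulated data with 200 changed genes the procedure recovered 170 in A549 and 188 in H1792, with 7 false calls in each. The changed genes all had the same size of change and were drawn from genes at higher levels than KIF18A and KIF20B. The simulated counts held no GC trend. These figures therefore do not cover KIF18A, KIF20B or the GC trend in H1792.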

Additional observations from a re-analysis of the deposited data

Results flagged for a closer look

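The 4 tested mitotic kinesins responded differently in the lines by the interaction test over 12 samples, with A549 minus H1792 differences in log2 fold change of -3.57 for KIF23, -4.41 for KIF20A, -4.62 for KIF18A and -4.01 for KIF20B. KIF18A and KIF20B had 0 of 3 A549 RG7112 samples at the filter level, and KIF18A also had 0 of 3 H1792 DMSO samples. Their calls are therefore no support by themselves. The call of KIF20B was lost with GC correction (adjusted p 0.0553) and without replicate 3 (0.0889). The interaction also passed its threshold for KIF18B (-4.41) among the other division kinesins, and for the partners RACGAP1 (-3.74), ECT2 (-3.16), HMMR (-4.80), BIRC5 (-4.29) and MKI67 (-4.32). Of the regulators it did so for FOXM1 (-3.86), MYBL2 (-4.19), RBBP4 (-1.47) and LIN37 (1.57). The call of LIN37 was lost with GC correction (adjusted p 0.0806), library size only (0.0522), the replicate block (0.0596) and without replicate 3 (0.117). MDM2 (3.12) and CDKN1A (3.40) responded more positively in A549. The call of CDKN1A was lost with GC correction (adjusted p 0.0754), library size only (0.0623), the replicate block (0.152) and without replicate 3, where the difference was 0.86 (0.218).

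Among transport genes the values were 1.60 for the light chain KLC4, -4.12 for KIF3C, -1.99 for DCTN4 and -2.58 for DYNC1LI2. The call of KLC4 was lost with GC correction (adjusted p 0.0852), library size only (0.0620), the replicate block (0.0546) and without replicate 3 (0.0922), and that of KIF3C in the block (0.0566). The value of KIF3C rests on 6 counts over the 3 H1792 DMSO samples. The values of KIF13B (-6.33) and LIN54 (-6.85) rest on 0 and 1 counts over the 3 H1792 DMSO samples and depend on the prior count of the fit, so they are no measure of size, and the call of KIF13B was lost without replicate 3 (adjusted p 0.0606). The causes of these differences were not tested.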

How the results depend on the processing

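Among the single values of members, 277 kept their direction and their side of the threshold over the alternatives, 23 lost the call, 2 gained it and 7 changed sign. Of the counts of members called, 80 were kept within 1.5 times and 19 moved. The 4 members lower in A549 became 1 with at least 10 counts in every sample, where 1 member could be tested, 2 at an adjusted p under 0.01, and 2 to 4 when a sample was left out. The 0 members lower in H1792 became 1 without a filter (KIF15) and 0 to 1 when a sample was left out (KIF14 without DMSO replicate 3). KIF14 passed the filter there through its remaining DMSO samples alone. The 1 member higher in H1792 (KIF18A) became 0 with at least 10 counts in every sample, with GC correction, and at an adjusted p under 0.01, became 2 without a fold threshold, and was 0 to 1 when samples were left out. The 4 negative interactions became 1 with at least 10 counts in every sample. The 1 member that differed between the lines with DMSO became 0 with that filter, 2 without a fold threshold, and 1 to 2 when samples were left out (KIF2C was added without H1792 DMSO replicate 2, and KIF14 without replicate 3). Signs changed for KIF23 in H1792 with GC correction (-0.16), for KIF20A in H1792 with library size only (0.21), at least 10 counts in every sample (0.020) and without H1792 DMSO replicate 2 (0.038), and for KIF20B between the lines with DMSO without A549 DMSO replicate 3 (-0.13) and without replicate 3 of every group (-0.55), where the values ranged up to 1.12 (without H1792 DMSO replicate 2). The cause was not tested, except that the stricter filter leaves fewer members to test.

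Same-numbered samples did not deviate together in every pair (r of 0.163, 0.0750 and 0.317 in A549 and -0.0507, -0.0273 and -0.00153 in H1792), so the samples share a number and no pairing is known. In A549, replicate 3 of each treatment went against replicates 1 and 2 of the other (r from -0.257 to -0.152). Replicates 1 and 2 of different number had r of 0.161 and 0.120 across treatments there. What sets replicate 3 apart in A549 was not tested. With the replicate block, the members called lower in A549 went from 4 to 3 and those called higher in H1792 from 1 to 0, also with GC correction (0), where KIF23 was at -0.17 in H1792. Library size alone moved the median of all genes by 0.26 in H1792 and -0.40 in the interaction, and GC correction by -0.16 and 0.19. Depth limits KIF4A, KIF2C, KIF15, KIF14 and CENPE, which could not be tested with the filter on all samples.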

Other observations

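In H1792, 2 of 14 transport kinesins tested were upregulated DEGs, beside 10.3% of all genes tested, so the count is not a result about these kinesins. KIF3C, a subunit of kinesin-2, had 4, 2 and 0 counts with DMSO and 23, 110 and 72 with RG7112 (log2 fold change 4.49, edgeR adjusted p 0.00922). KIF13B had 0 counts in all 3 controls and 13, 30 and 12 with RG7112, at least 3.76-fold higher against a floor of 3 counts per library. In A549 neither KIF3C nor KIF13B passed the test (adjusted p 0.819 and 0.564).

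Dynein, the motor that walks towards microtubule minus ends, and its cofactor dynactin gave 0 DEGs among 17 genes tested in A549 (edgeR; 2 were lower and 0 higher at an unadjusted p under 0.05, and DESeq2 called 0). Over all 10739 genes tested there, 323 were downregulated and 342 were upregulated DEGs. In H1792, 2 of 16 were upregulated DEGs, again near the 10.3% of all genes. DCTN4, a dynactin subunit, went from 17.5 ± 3.46 to 79.9 ± 9.03 CPM (log2 fold change 2.27, edgeR adjusted p 0.00272), and DYNC1LI2, a dynein light intermediate chain, from 13.1 ± 4.50 to 76.1 ± 16.8 CPM (2.61, adjusted p 0.00316). Both calls held with GC correction (1.89 and 2.26).

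Among the subunits of DREAM and the MYB-MuvB complex in H1792, LIN54, which contacts the cell cycle genes homology region, had 1 count over the controls and 140 over the treated samples (ratio 96.1, exact 95% interval 17.0 to 3822, counting error only). RBBP4 rose by 1.03 and LIN37 fell by 1.27 on the log2 scale (edgeR adjusted p 0.00567 and 0.0272), and with GC correction neither was a DEG (0.69 and -0.92). Of the 8 p53 response genes tested in H1792, RRM2B and ZMAT3 were the 2 upregulated DEGs (10.3% of all genes tested were), and 0 were called with GC correction. RRM2B had 0 of 3 and ZMAT3 1 of 3 H1792 DMSO samples at the filter level. They could be tested because of their RG7112 samples, so these calls are no support by themselves. Without replicate 3 of every group, which leaves 2 samples against 2, 0 genes of the transport, dynein, DREAM and p53 lists were called in H1792, and in the replicate block KIF13B, LIN37, RRM2B and ZMAT3 lost their calls.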
